A study of Arabidopsis thaliana with 12 samples.

Results

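Transcripts of 4 DORNROSCHEN-type AP2 genes of Arabidopsis thaliana were followed through the 4 treatments of a seedling experiment. The genes are ESR1 (AT1G12980), also called DORNROSCHEN or DRN, its close relative DRNL (AT1G24590), also called ESR2, and the pair PUCHI (AT5G18560) and LEP (AT5G13910, LEAFY PETIOLE). They were chosen by name as 4 of the 26702 genes listed, with earlier results of these libraries known, so their levels and differences are given as a description with no p-value of their own. Counts of how many of them limma called stand beside the share of all genes, and nothing is read from them. All 4 passed the filter on low values, which asked for a normalised read count of at least 10 in at least 3 libraries and left 23225 genes. DRNL reached 10 in 10 of the 12 libraries and the other genes in all 12.

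All seedlings carried the genotype clv3 epfl1 epfl2 epfl4 epfl6, with mutations in the stem cell peptide gene CLV3 and in genes for EPFL peptides, and no group with intact copies of these genes was analysed here. RNA selected for poly(A) tails was sequenced from tissue labelled as the shoot of seedlings 3 days after germination, with 3 biological replicates of 10 seedlings in each group. The CHX plus EPFL6 group received 10 µM cycloheximide 10 minutes before the peptide, and the CHX group received cycloheximide and then buffer. The EPFL6 group received the peptide without cycloheximide and the mock group buffer alone. The protocol's 8.7 µl of a 10 µM EPFL6 solution in 1 ml of medium computes to 86.2 nM, and the labels do not say how long the peptide acted before collection.

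AP2-domain proteins of this kind are plant transcription factors that bind DNA and switch other genes on or off. ESR1 and DRNL act together in the founder cells of cotyledons, leaves and floral organs, PUCHI acts in lateral root primordia and young floral meristems, and LEP is known from plants in which its overexpression turned the petiole into leaf blade. EPFL6 is a secreted peptide of the family read by ERECTA receptor kinases, which restrain the size of the shoot meristem. Cycloheximide (CHX) stops ribosomes, and its use beside the peptide separates transcript changes that need new protein from those that do not.

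The 4 genes fall into 2 pairs by sequence. In the RefSeq TAIR10.1 annotation each is a protein-coding gene of 1 exon and 1 transcript that overlaps no other gene. ESR1 lies at chr1:4429718-4430965 and encodes 328 residues, and DRNL lies at chr1:8714365-8715378 and encodes 306 residues. PUCHI lies at chr5:6164526-6166040 with 348 residues, and LEP at chr5:4482128-4483247 with 211 residues. An ungapped stretch of 60 residues, which lies in the AP2 DNA-binding domain, can be aligned across all of them. Within it 44 residues were the same in all 4 proteins, and 6 more were shared within each pair and differed between the pairs. The DNA that encodes this stretch is shown because it carries both the likeness that groups the genes and the positions that separate the pairs, whose codons are in capitals. Each line runs 5′ to 3′ on the coding strand.
ESR1 (chr1:4429953-4430132, plus strand): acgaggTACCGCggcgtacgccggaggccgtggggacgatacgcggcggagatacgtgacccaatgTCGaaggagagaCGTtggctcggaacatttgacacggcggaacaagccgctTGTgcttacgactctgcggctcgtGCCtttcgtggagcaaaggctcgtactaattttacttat
DRNL (chr1:8714965-8715144, minus strand): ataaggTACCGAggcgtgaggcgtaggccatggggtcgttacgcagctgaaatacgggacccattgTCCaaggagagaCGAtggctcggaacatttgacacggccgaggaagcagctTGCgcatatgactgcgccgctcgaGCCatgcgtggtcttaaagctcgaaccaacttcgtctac
PUCHI (chr5:6165570-6165749, minus strand): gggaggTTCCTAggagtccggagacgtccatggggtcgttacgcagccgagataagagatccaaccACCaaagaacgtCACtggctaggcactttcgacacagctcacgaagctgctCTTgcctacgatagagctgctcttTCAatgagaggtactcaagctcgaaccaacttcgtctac
LEP (chr5:4482855-4483034, minus strand): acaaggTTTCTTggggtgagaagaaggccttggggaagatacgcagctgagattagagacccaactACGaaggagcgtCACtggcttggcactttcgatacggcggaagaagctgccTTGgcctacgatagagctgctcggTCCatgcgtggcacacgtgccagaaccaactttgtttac

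Identity over these 60 residues was 88.3% between ESR1 and DRNL and 93.3% between PUCHI and LEP, against 73.3% to 81.7% across the pairs. The DNA differed more: the longest run of identical coding bases was 23 for ESR1 with DRNL, 23 for DRNL with PUCHI and 19 for PUCHI with LEP. Reads longer than these runs can be told apart between the genes, though the read length and counting mode are not given in the sources used here.

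The 250 bases upstream of the annotated starts of ESR1 and DRNL are shown because their EPFL6 differences had the same direction, both without and with CHX. The part of the upstream sequence in this was not tested. Capitals mark the searched motif TATAAA on either strand, the core letters of a TATA box. The lines run 5′ to 3′ toward the gene.
ESR1 (chr1:4429468-4429717, plus strand): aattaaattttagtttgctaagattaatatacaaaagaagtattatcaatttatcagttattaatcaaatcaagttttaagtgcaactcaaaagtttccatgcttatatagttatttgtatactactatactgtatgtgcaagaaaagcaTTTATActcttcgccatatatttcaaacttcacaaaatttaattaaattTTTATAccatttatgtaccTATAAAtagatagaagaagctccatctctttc
DRNL (chr1:8715379-8715628, minus strand): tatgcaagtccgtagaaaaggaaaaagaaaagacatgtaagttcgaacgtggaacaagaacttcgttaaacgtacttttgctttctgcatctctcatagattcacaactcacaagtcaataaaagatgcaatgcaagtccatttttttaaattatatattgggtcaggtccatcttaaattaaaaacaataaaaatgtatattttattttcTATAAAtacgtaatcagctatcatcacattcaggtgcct

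Windows of 300 bases, from 250 before to 50 after the start, were searched on both strands. They covered all 27443 protein-coding RefSeq genes on the nuclear chromosomes of this assembly with such a window. TATAAA occurred in 52.1% of them and in all 4 described genes, with a copy on the gene's own strand starting 32 bases before the start of ESR1, 39 before that of DRNL and 34 before that of LEP. The auxin response letters TGTCTC, held by 14.2% of windows, were found in PUCHI alone, 22 bases before its start. Neither TGTCGG (auxin response factors, 5.12% of windows), GCCGCC (ERF factors, 2.57%), CACGTG (the G-box, 7.68%) nor TTAATGG (WUS, 8.1%) was present in any of the 4 windows, and no copies of different motifs overlapped. The 250 bases before the start were richer in A and T in ESR1 (76.0%), PUCHI (72.4%) and LEP (72.0%) than the median of 68.8% over all these protein-coding genes. That median was also the value of DRNL.

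Recovered depth was 71.25 to 98.32 M reads in CHX plus EPFL6 libraries, 85.72 to 106.64 in CHX, 40.2 to 59.37 in EPFL6 and 47.9 to 56.79 in mock. The 100 most abundant genes took 21.4% to 23.4% of reads with CHX and 12.9% to 15.7% without it. Markers of green tissue were present in every group. The 9 root markers were present too, summing to 7044 to 8978 normalised counts in mock with none at 0. Root tissue may have been part of the harvest, which was not tested. In bulk RNA a change in the number of cells that express a gene and a change in transcript per cell cannot be told apart.

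ESR1, a regulator of shoot regeneration and of cotyledon and leaf founder cells, covered the widest range of the 4 genes. Its normalised read counts were 31.9, 33.2 and 14.6 in the CHX plus EPFL6 libraries and 752, 772 and 712 in the CHX libraries. They were 159, 142 and 181 in EPFL6 libraries and 59.3, 64 and 63.2 in mock libraries. The 4 groups did not overlap: CHX alone stood highest, then EPFL6 alone, then mock, and the combination lowest. The lowest single value, in CHX plus EPFL6 replicate 3, rests on 14 reads, while the CHX libraries held 759 to 845 reads of this gene.

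DRNL, which acts redundantly with ESR1 in cotyledon formation and marks organ founder cells, was a gene of low counts. Its counts were 18.9, 28 and 17.7 in CHX plus EPFL6 libraries and 69, 136 and 79.2 in CHX libraries. They were 44.5, 42.5 and 46.4 in EPFL6 libraries and 13.8, 6.49 and 4.08 in mock libraries, where they rest on 13, 7 and 4 reads. The groups again did not overlap, with CHX highest and EPFL6 next as for ESR1, but here the combination stood above mock and not below it.

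PUCHI, needed for the orderly divisions of lateral root primordia, had counts of 85, 167 and 151 in CHX plus EPFL6 libraries and 134, 162 and 211 in CHX libraries. It had 35.6, 52.9 and 50.5 in EPFL6 libraries and 50.8, 43.6 and 55 in mock libraries. Both groups with CHX lay above both groups without it, and within each of these pairs of groups the libraries overlapped.

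LEP, whose excess turns the petiole into blade, differed with CHX in the direction opposite to its sequence partner. Its counts were 79.1, 175 and 123 in CHX plus EPFL6 libraries and 77.3, 109 and 139 in CHX libraries, against 304, 321 and 299 in EPFL6 libraries and 303, 238 and 325 in mock libraries. Every library with CHX was below every library without it, and the peptide left the libraries overlapping in both settings.

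**Figure D1:**
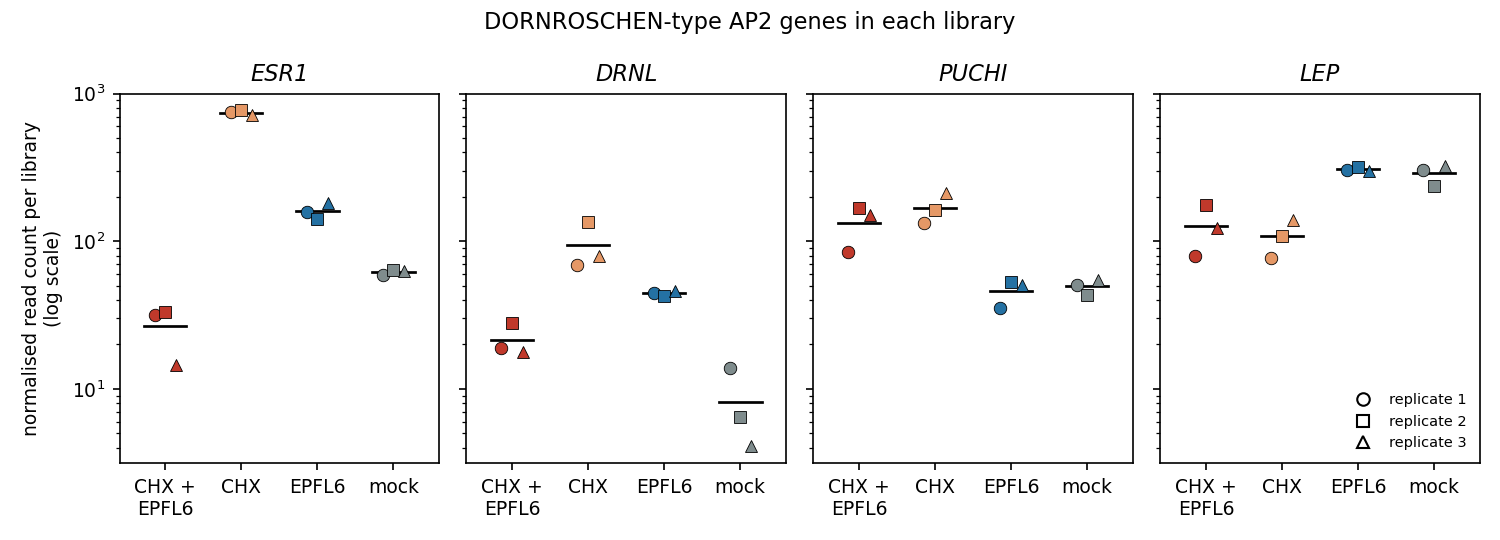
Normalised read counts of ESR1, DRNL, PUCHI and LEP in each library on a log scale, with the groups from left to right CHX plus EPFL6, CHX, EPFL6 and mock; symbols mark replicates 1 to 3 and bars the group means. ESR1 averaged 26.5, 745, 161 and 62.2 in these groups, and the groups of ESR1 and of DRNL do not overlap.

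EPFL6 alone left ESR1 and DRNL higher than mock. ESR1 averaged 161 ± 19.6 in EPFL6 libraries and 62.2 ± 2.51 in mock libraries (SD, n = 3 each), a ratio of 2.59, and DRNL averaged 44.5 ± 1.92 in EPFL6 libraries and 8.11 ± 5.05 in mock libraries, a ratio of 5.48. On the log2(count + 1) scale, which understates changes of low counts, the differences were 1.35 ± 0.25 for ESR1 and 2.46 ± 0.38 for DRNL (SE from limma). The DRNL difference was the highest of the 23225 genes and that of ESR1 ranked 29 from the top. Over the alternative settings the rank of DRNL ran from 1 to 34 and that of ESR1 from 10 to 150. For PUCHI the difference was -0.12 with a 95% interval of -0.71 to 0.47, and for LEP 0.11 with an interval of -0.50 to 0.71.

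None of the 4 genes passed limma's adjusted threshold of 0.05 for EPFL6 against mock, where 0.0172% of all tested genes were called in either direction. An unadjusted p under 0.05 was reached by 2 of them (ESR1 and DRNL) and by 708 of all genes. DESeq2 called 2 of them, where it called 0.133% of all tested genes, and edgeR 0, where it called 0.00861%. Leaving out CHX plus EPFL6 replicate 3 or mock replicate 1 brought 1 call each in limma. Without mock replicate 1 limma called 0.0173% of all tested genes, and over all fits without 1 library it called 1 to 5 genes. Nothing is read from these calls. The libraries did not overlap for 2 of the 4 genes, against 6.78% of all tested genes, and nothing is read from this count since the genes were chosen with these values known.

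With CHX present the peptide went with the opposite difference in the same pair. ESR1 averaged 26.5 ± 10.4 in CHX plus EPFL6 libraries and 745 ± 30.8 in CHX libraries (SD, n = 3 each), 28.1 times lower, with a log2 difference of -4.84 ± 0.25. Counted from the lowest difference of all tested genes, it ranked 2, and 1 to 7 over the alternatives. DRNL averaged 21.5 ± 5.62 in CHX plus EPFL6 libraries and 94.8 ± 36.3 in CHX libraries, 4.41 times lower, with a log2 difference of -2.05 ± 0.38 and a rank of 171. Within the CHX group, replicate 2 stood apart at 136, above the other CHX libraries.

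PUCHI averaged 134 ± 43.3 in CHX plus EPFL6 libraries and 169 ± 38.6 in CHX libraries, a log2 difference of -0.36 with an interval of -0.95 to 0.23. LEP averaged 126 ± 47.9 in CHX plus EPFL6 libraries and 108 ± 30.8 in CHX libraries, a log2 difference of 0.18 with an interval of -0.43 to 0.78. For both genes the libraries overlapped, and the intervals reach to either side of 0, so no direction was detectable at this precision. Limma called 2 of the 4 genes, both lower, where 13.5% of all tested genes were called in either direction and 7.63% were called lower. Libraries without overlap were found for 2 of the 4 genes and for 35.7% of all tested genes.

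The EPFL6 difference with CHX minus that without it was -6.20 ± 0.36 for ESR1, the lowest of all tested genes and of rank 1 to 5 over the alternatives. For DRNL it was -4.51 ± 0.53, at rank 6 and 4 to 25 over the alternatives. PUCHI had -0.25 (95% interval -1.08 to 0.59) and LEP 0.07 (-0.78 to 0.93). Limma called 2 of the 4 genes, both lower, against 1.5% of all tested genes in either direction (0.366% higher and 1.14% lower). ESR1 and DRNL were thus higher with the peptide in the absence of CHX and lower with it in the presence of CHX, in every library of the compared groups.

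**Figure D2:**
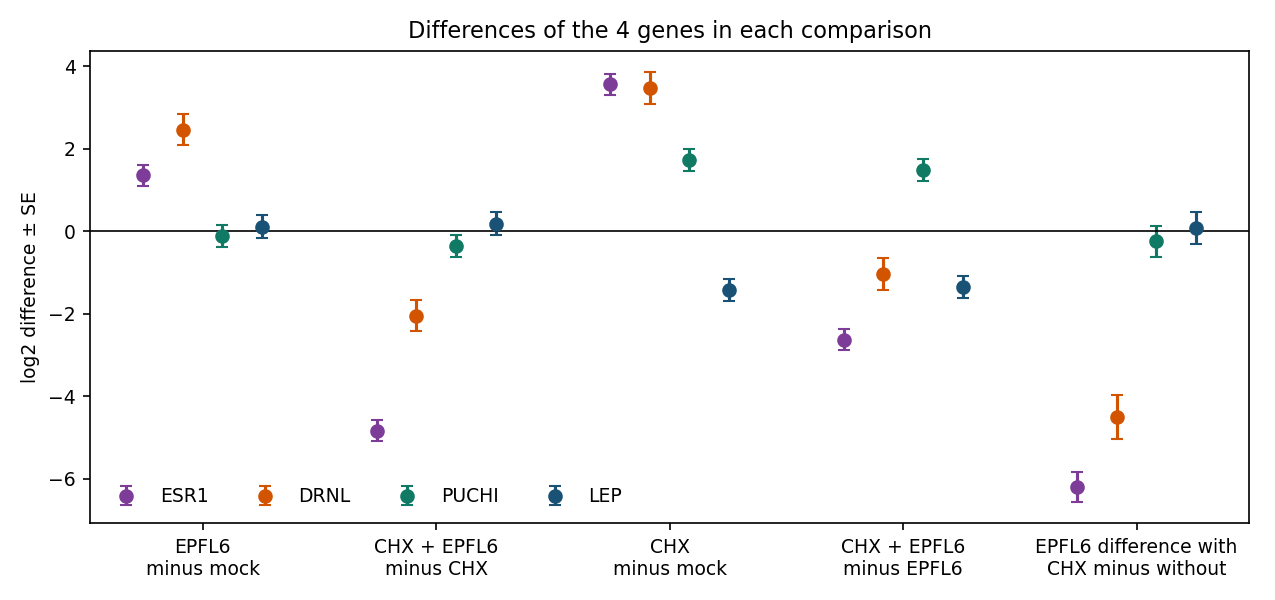
Log2 differences of the 4 genes (points) with their SE from limma (bars) in each comparison, fitted over all 12 libraries. ESR1 and DRNL lie above 0 for EPFL6 minus mock and below 0 for CHX plus EPFL6 minus CHX, while PUCHI and LEP lie near 0 in both.

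CHX itself moved all 4 genes, in different directions. Relative to mock, ESR1 was 12 times higher with CHX and DRNL 11.7 times higher, PUCHI 3.39 times higher and LEP 2.66 times lower. The log2 differences were 3.56 ± 0.25, 3.47 ± 0.38, 1.72 ± 0.27 and -1.43 ± 0.27 in that order. Such shifts were common: limma called 3 of the 4 genes higher and 1 lower, against 40.9% and 38.3% of all tested genes, or 79.2% in either direction. Libraries did not overlap for all 4 genes and for 80.4% of all tested genes. Scaling by library size alone gave 2.82, 2.77, 0.98 and -2.18, with the median of all genes at -0.73 and 72% of calls lower in place of 48.4%. The 4 genes kept their directions under it.

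In the presence of the peptide the order changed. ESR1 was 6.06 times lower and DRNL 2.07 times lower in CHX plus EPFL6 libraries than in EPFL6 libraries, with log2 differences of -2.63 ± 0.25 and -1.04 ± 0.38. PUCHI stayed 2.90 times higher in CHX plus EPFL6 libraries (1.48 ± 0.27) and LEP 2.45 times lower (-1.36 ± 0.27). Limma called 1 of the 4 genes higher and 3 lower, against 40.2% and 37.7% of all tested genes, or 77.9% in either direction. Libraries did not overlap for all 4 genes and for 80.6% of all tested genes. With scaling by library size alone the values were -3.35, -1.75, 0.76 and -2.09 beside a median of all genes of -0.70 and 72.9% of calls lower in place of 48.4%, again in the same directions. This comparison shares its libraries with those above, so its values stand beside them and are no separate evidence.

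Root markers differed with CHX in both directions. Of the 9, limma called 5 lower and 1 higher in CHX than in mock, against 38.3% and 40.9% of all tested genes. In CHX plus EPFL6 it called 7 lower and 1 higher than in EPFL6, against 37.7% and 40.2% of all tested genes. PRP3 averaged 63.4 in CHX and 2171 in mock libraries, CASP1 21.9 in CHX and 1256 in mock libraries, and PER64 4.23 in CHX and 1073 in mock libraries. PLT2, a gene of the root stem cell niche, was the one that rose, at 388 ± 32 in CHX and 145 ± 33.8 in mock libraries. The sum of the 9 was 2355 to 2594 in CHX plus EPFL6 libraries and 2719 to 2912 in CHX libraries, against 8248 to 9530 in EPFL6 libraries and 7044 to 8978 in mock libraries. Sums of the 4 green shoot markers were 239678 to 389907 in CHX plus EPFL6, 220677 to 318805 in CHX, 368619 to 684282 in EPFL6 and 362501 to 706233 in mock libraries. No marker of either list was at 0 in a group. The part of these shifts in the CHX differences of PUCHI, a gene of root primordia, and of the other 3 genes was not tested.

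Set against mock, the combined treatment left the pairs divided in another way. ESR1 stood at 0.427 and LEP at 0.435 of the mock mean in CHX plus EPFL6 libraries, while DRNL stood at 2.65 and PUCHI at 2.69 times the mock mean. None of these libraries overlapped with mock. The share of all genes was not computed for this comparison, and for CHX against mock it was 80.4%, so nothing is read from the lack of overlap.

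Levels per kilobase of exon allow the genes to be compared with each other. With CHX plus EPFL6 the mean order was LEP at 112, PUCHI at 88.6, ESR1 at 21.3 and DRNL at 21.2 normalised counts per kb, and only PUCHI and ESR1 were neighbours without overlap. With CHX alone ESR1 led at 597, followed by PUCHI at 111, LEP at 96.8 and DRNL at 93.5, and the last 3 overlapped with their neighbours. With EPFL6 alone the order was LEP at 275, ESR1 at 129, DRNL at 43.8 and PUCHI at 30.6, and in mock it was LEP at 258, ESR1 at 49.8, PUCHI at 32.9 and DRNL at 8. No neighbours overlapped in the groups without CHX. ESR1 was thus the leading gene in the CHX group alone, and LEP led in the other 3 groups.

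The balance within each pair changed too. ESR1 per kb was 0.669 to 1.37 times DRNL in CHX plus EPFL6 libraries, 4.6 to 8.85 times in CHX, 2.72 to 3.18 times in EPFL6 and 3.5 to 12.6 times in mock libraries. The combined treatment was the condition with about equal amounts of these partners. PUCHI per kb was 0.706 to 0.908 times LEP in CHX plus EPFL6 libraries and 1.1 to 1.28 times in CHX libraries, but 0.0866 to 0.125 times in EPFL6 and 0.124 to 0.136 times in mock libraries. For this second pair the ratio followed CHX.

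**Figure D3:**
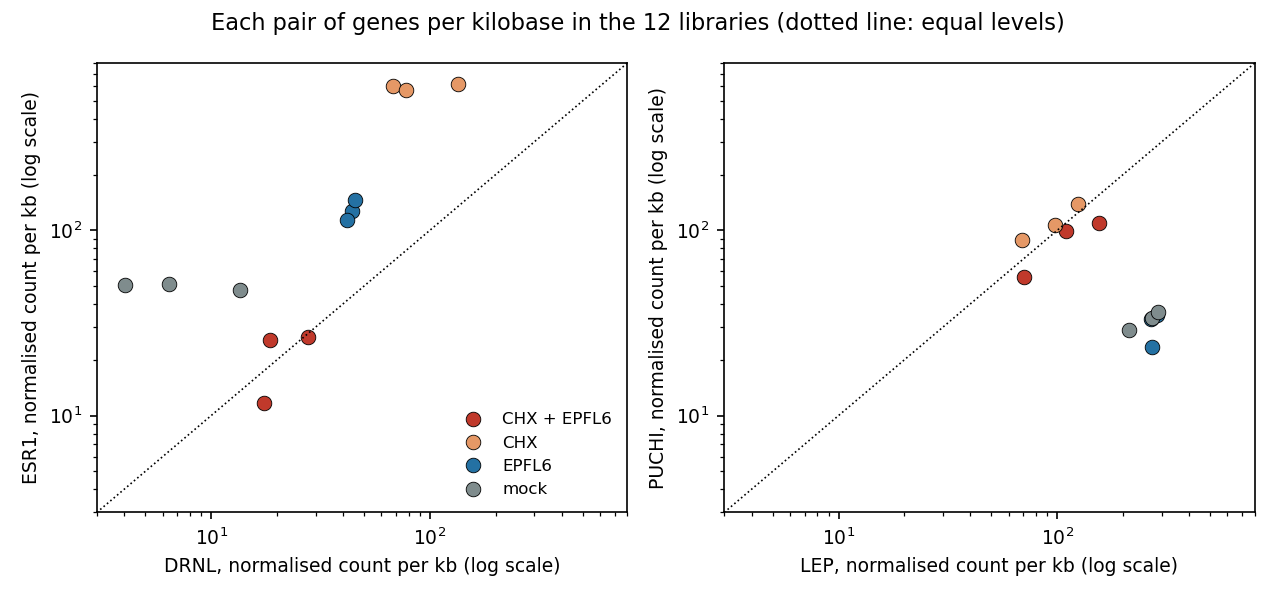
Normalised counts per kilobase of ESR1 against DRNL and of PUCHI against LEP in the 12 libraries, on log axes, with a dotted line where both genes are equal. CHX plus EPFL6 libraries lie near the line for ESR1 and DRNL, and both groups with CHX lie near it for PUCHI and LEP.

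Over the 12 libraries, the Pearson correlation of log2(count + 1) was 0.74 for ESR1 with DRNL and -0.75 for PUCHI with LEP, with Spearman values of 0.78 and -0.57. The gene pair with the highest identity in the aligned stretch, PUCHI and LEP, thus had the most negative correlation of the 6 pairs. Across the pairs Pearson values ran from -0.39 (DRNL with LEP) to 0.48 (DRNL with PUCHI). These values describe 12 libraries that share 4 treatments and a depth difference, and they are not a test.

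**Figure D4:**
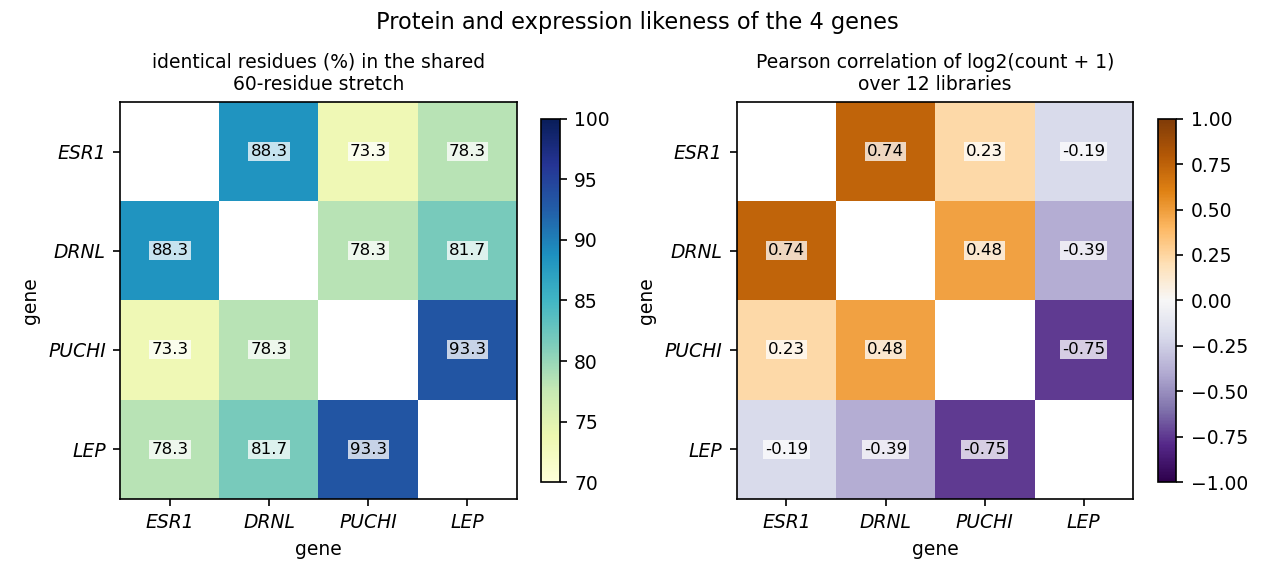
Percent identical residues in the aligned 60-residue stretch (left) and Pearson correlation of log2(count + 1) over 12 libraries (right) for each pair of genes. ESR1 and DRNL share 88.3% of residues with a correlation of 0.74, and PUCHI and LEP 93.3% with -0.75.

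The genes whose profile over the 12 libraries was most like that of each member were listed by Pearson correlation. For ESR1 the closest was AT5G11930, annotated as a thioredoxin superfamily protein, at 0.950, with means of 35.3 in CHX plus EPFL6, 320 in CHX, 75.4 in EPFL6 and 80.4 in mock libraries. The bZIP factor gene bZIP42 (0.925), AT1G52720 (0.925), the RNA-binding protein gene UBP1B (0.921) and AT3G44800 (0.905) followed. AT5G11930 and bZIP42 (14 in EPFL6 and 17.7 in mock libraries) differed from ESR1 in that EPFL6 alone did not raise their means above mock. The means of AT1G52720 (1050 against 1025), UBP1B (3042 against 2961) and AT3G44800 (39.3 against 33.5) were a little higher in EPFL6 than in mock libraries. bZIP42 was near the floor of counts in CHX plus EPFL6 libraries, at a mean of 4.16. For DRNL the closest was MNP (MONOPOLE, AT3G50870), a GATA factor gene of the embryo and shoot meristem, at 0.925, with means of 252, 316, 275 and 167 in the same order of groups.

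AT3G03325, a long non-coding RNA (0.906), AT3G24450 (0.861), the elicitor peptide precursor gene PROPEP6 (0.858) and AT1G75580 (0.852) came next for DRNL. Profiles like those of ESR1 and DRNL were rare, with 5 and 2 genes over 0.9. PUCHI and LEP, which mainly followed CHX, had 4800 and 2034 such genes. The closest to PUCHI were the MADS gene AGL57 (0.980), the phospholipase gene NPC4 (0.979) and the xylem NAC gene XND1 (0.979). The closest to LEP were AT3G26590 (0.978), the receptor kinase gene AT1G08590 (0.974) and AT3G04600 (0.972). Some of these were near the floor of counts. AGL57 averaged 7 in CHX plus EPFL6 and 14.6 in CHX libraries and was at 0 in the groups without CHX. AT1G08590 averaged 2.09 in CHX plus EPFL6 and 2.3 in CHX libraries. Chosen by Spearman correlation instead, the lists shared 0 of 5 genes for ESR1, 3 of 5 for DRNL, 0 of 3 for PUCHI and 1 of 3 for LEP.

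Relatives of the 4 genes, genes reported to act with them, meristem and organ genes and tissue markers were described from 9 lists of 69 genes, of which 66 were tested and AT1G28160, AP1 and CAL were not. For EPFL6 against mock, limma called 0 of the 66 higher and 1 lower, against 0% and 0.0172% of all tested genes. At an unadjusted p under 0.05 by limma there were 2 higher and 6 lower, beside 708 of all tested genes in either direction. The calls of edgeR were 0 higher and 1 lower, against 0% and 0.00861% of all tested genes. Those of DESeq2 were 1 and 3, against 0.0431% and 0.0904%. The gene called lower by limma was CLV3, one of the mutated genes, at 311 ± 46.5 in EPFL6 libraries and 683 ± 94.6 in mock libraries (-1.13 ± 0.11, adjusted p = 0.0086 by limma). This call was lost without EPFL6 replicate 2 (adjusted p = 0.067 by limma) and in a fit of the EPFL6 and mock libraries alone (0.61 by limma). Genes without a call could be lower too: WUS averaged 123 ± 2.27 in EPFL6 libraries and 379 ± 60.6 in mock libraries and was not called by limma.

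For CHX plus EPFL6 against CHX, 25 of the 66 context genes fell and 0 rose in limma, where 7.63% of all tested genes were lower and 5.89% higher. Unadjusted p-values under 0.05 by limma gave 31 lower and 1 higher, where 7282 of all 23225 tested genes had one in either direction. Both edgeR and DESeq2 called 25 lower and 0 higher, where they called 8.64% and 11.2% of all tested genes lower. The number of lower calls was 17 when CHX replicate 2, CHX replicate 3, CHX plus EPFL6 replicate 1 or CHX plus EPFL6 replicate 3 was left out. Over all fits without 1 library, 1018 to 3972 genes were called in either direction, and nothing is read from the 17. These lists hold meristem and organ founder genes whose fall was known when they were chosen, so the count is not independent evidence of a direction.

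Among genes reported as downstream of ESR1 or DRNL, limma called 5 of 6 lower, against 7.63% of all tested genes. The median log2 difference of this list was -1.25, against 0 over all genes. The lists were chosen with earlier results known, so nothing is read from this count or from those of the lists below. The organ boundary gene CUC1 stood at 134 ± 20.9 in CHX plus EPFL6 libraries and 369 ± 49.3 in CHX libraries (-1.46 ± 0.14, adjusted p = 0.00029 by limma). The Dof factor gene OBP1, a promoter of cell cycle entry, stood at 407 ± 23.3 and CLV3 at 853 ± 13 in CHX plus EPFL6 libraries, against 1076 ± 133 for OBP1 and 4708 ± 194 for CLV3 in CHX libraries. AHP6, an inhibitor of cytokinin signalling, had -1.11 (adjusted p = 0.021 by limma), a call lost when CHX replicate 2, CHX replicate 3, CHX plus EPFL6 replicate 1 or CHX plus EPFL6 replicate 3 was left out (adjusted p 0.06 to 0.079 by limma). CUC2, at -1.07 (adjusted p = 0.042 by limma), passed in 4 of 21 alternatives and was lost when any single library of CHX plus EPFL6, CHX or mock was left out (adjusted p 0.052 to 0.09 by limma). Leaving out any of the 4 libraries named for AHP6 brought the calls of this list to 3.

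Of 8 reported upstream regulators limma called 2 lower, against 7.63% of all tested genes, with a median of -0.35 over the list. These were the auxin response factor genes MP and ARF19, which fell by 0.53 and by 0.79 on the log2 scale (adjusted p = 0.01 and 0.0065 by limma). Of the HD-ZIP III genes and BIM1, whose proteins bind ESR1 or DRNL, 3 of 6 fell, with PHB at -0.52 and CNA at -0.51 (adjusted p = 0.0032 and 0.0048 by limma). REV, at -0.42 (0.025 by limma), was lost when CHX replicate 1, CHX replicate 2, CHX plus EPFL6 replicate 1 or CHX plus EPFL6 replicate 3 was left out (adjusted p 0.054 to 0.09 by limma).

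The closest other relatives of the 4 genes are the remaining group VIII ERF genes, a group with many transcriptional repressors. Of 10 tested, limma called 2 lower when the peptide followed CHX, against 7.63% of all tested genes. AT1G80580 stood at 42.4 ± 7.41 in CHX plus EPFL6 libraries and 318 ± 36.4 in CHX libraries (-2.88 ± 0.17, adjusted p = 9.8e-06 by limma), and passed in 22 of 22 alternatives. Unlike ESR1 and DRNL it was not higher with EPFL6 alone, at 49.6, 49.5 and 67 in EPFL6 libraries and 120, 130 and 103 in mock libraries (-1.08 ± 0.17, adjusted p = 0.16 by limma). ERF4, a repressor in ethylene and stress responses, had -0.50 (adjusted p = 0.046 by limma) and passed in 13 of 22 alternatives. It was lost without 8 of the single libraries, with adjusted p up to 0.17 by limma without CHX replicate 3.

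Limma called 6 of 10 floral meristem and organ founder genes lower (median -0.66) and 4 of 6 meristem and boundary genes (median -0.77). Of all tested genes 7.63% were called lower and 13.5% in either direction. UFO, a floral F-box gene, stood at 2.71 ± 2.17 in CHX plus EPFL6 libraries and 79 ± 17.7 in CHX libraries (-4.56 ± 0.35, adjusted p = 5.5e-05 by limma), close to the ESR1 difference in size. ANT, an AP2 gene of organ growth, had -1.64 (adjusted p = 0.00029 by limma). WUS, the stem cell organiser gene, had -3.45 and the meristem homeobox gene STM -2.38 (adjusted p = 1.1e-05 and 0.00019 by limma). The very-long-chain fatty acid elongation genes, reported to act under PUCHI in root primordia, had 0 of 7 calls and a median of 0.02. Root markers had 2 of 9 lower (CASP1 and SHR) and green shoot markers 1 of 4 (AS1), and each of these 3 calls was lost without 1 or more single libraries.

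**Figure D5:**
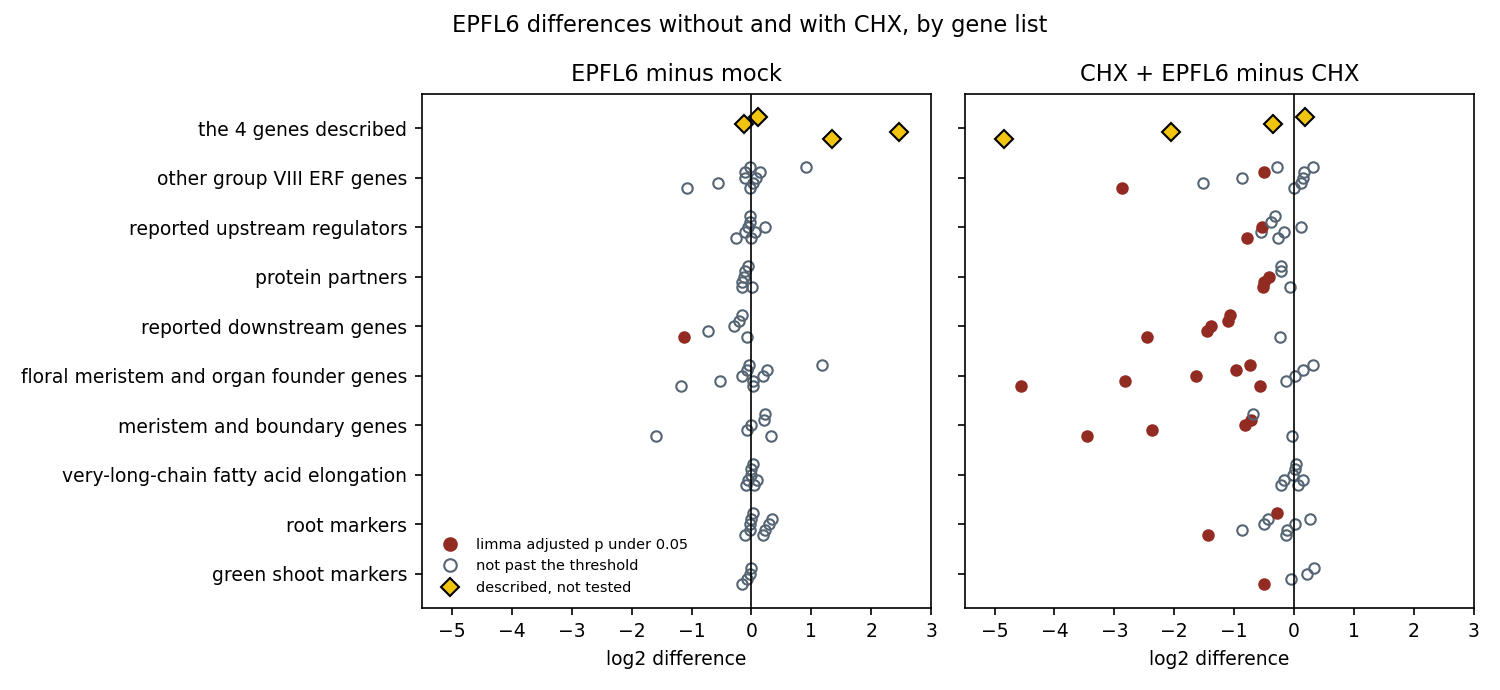
Log2 differences of the 4 described genes (diamonds) and of the genes of 9 context lists (circles, filled where limma's adjusted p was under 0.05) for EPFL6 minus mock (left) and CHX plus EPFL6 minus CHX (right). In the right panel all 25 filled circles lie below 0, and ESR1 at -4.84 lies below all of them.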

How the data were processed

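Polyadenylated RNA was measured in 12 libraries, 3 for each of 4 treatments, and groups were taken from the sample labels. Per the submitters' processing notes, the authors worked with the TAIR10 genome build, the aligner STAR 2.7.6a, the counter featureCounts 2.0.0 and DESeq2 1.26.0, and their settings, counting mode and strand included, are not given in the sources used here. The deposited table holds a read signal per gene in each library: whole read counts divided by 1 size factor per library, called normalised read counts here. Multiplied back by that factor, 100% of the values came out whole (tolerance 1e-06), and these reads gave the depth.

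A gene was tested when 3 or more libraries held a value of 10 or more, which kept 23225 of 26702. The fit on log2(value + 1) used limma 3.58.1 (R 4.3.3), an intensity trend, robust moderation and all 4 groups without a replicate block. P-values are two-sided and adjusted by Benjamini-Hochberg over all tested genes, with a threshold of 0.05. Called means past this threshold, and no overlap means that every library of one group lay above every library of the other. The 5 contrasts were the EPFL6 difference without CHX, the EPFL6 difference with CHX, the CHX difference without EPFL6, the CHX difference with EPFL6, and the second of these minus the first. The scripts were tested on simulated data.

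The 4 genes and the 9 context lists were chosen with earlier results of these data known. Named genes are the 4 genes, up to 4 called genes of largest difference per context list and comparison, the 5 genes with the highest Pearson correlation to ESR1 and to DRNL, and the 3 with the highest to PUCHI and to LEP. CUC2 for CHX plus EPFL6 against CHX, context genes other than CLV3 for EPFL6 against mock, and the 3 genes not tested fall outside this rule. They were named after their values were seen. For 1 gene of the context lists, which is part of the counts, no value is reported here. Gene models, upstream and coding sequence came from the RefSeq TAIR10.1 assembly and were matched by locus tag.

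The 22 alternatives covered pseudocounts of 0.5 and 8, no filter, a mean of at least 50, TMM and library size scaling, edgeR 4.0.16 quasi-likelihood tests and DESeq2 1.42.0 on the recovered reads, fits of the compared groups alone, a replicate block and each library left out. On the recovered reads edgeR called 2, 3325, 18487, 18094 and 313 genes in the 5 contrasts in this order.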

Additional observations from a re-analysis of the deposited data

Results flagged for a closer look

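Among the genes described, the EPFL6 difference with CHX and that without it pointed in opposite directions in every library for ESR1 and DRNL. The difference of the differences was -6.20 on the log2 scale for ESR1 and -4.51 for DRNL. This contrast was in view when the genes were chosen, so no p is given for it.

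In the context lists the same difference of differences passed limma's adjusted threshold for 10 of 66 genes, all of them lower, where 1.14% of all tested genes were called lower. These lists were chosen with earlier results of these libraries known. The count and the p-values below are therefore not independent evidence of a direction. The value was -5.74 for UFO (adjusted p = 0.00068 by limma), -2.30 for STM (0.0069 by limma) and -1.85 for WUS (0.023 by limma). It was -1.80 for AT1G80580 (adjusted p = 0.0087 by limma), -1.39 for CUC1 (0.011 by limma), -1.33 for CLV3 (0.0031 by limma) and -1.24 for OBP1 (0.017 by limma). For ANT it was -1.12 (adjusted p = 0.041 by limma) and for KNAT1 -1.05 (0.037 by limma). Such a call does not need opposite directions. UFO averaged 149 in EPFL6 and 64.1 in mock libraries, so it was higher with the peptide without CHX and lower with CHX. The means of WUS, CLV3, AT1G80580 and ANT were lower with the peptide in both settings. For STM, CUC1, OBP1 and KNAT1 the EPFL6 and mock libraries overlapped.

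Without mock replicate 1 the number of lower calls was 6, where 0.332% of all tested genes were called lower. DESeq2 gave 17, where it called 4.22% of all tested genes lower. The calls for ANT, WUS and KNAT1 held in 10, 15 and 12 of 21 alternatives. OBP1 was lost without mock replicate 1 (adjusted p = 0.056 by limma).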

How the results depend on the processing

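ESR1 and DRNL kept the sign of their difference in every comparison under every alternative that gave a value (DRNL has none under a mean of at least 50, since its own mean was 42.2, and the difference of differences was not run in fits of the compared groups alone). LEP and PUCHI kept the sign of their CHX differences throughout, while their EPFL6 differences were close to 0. Without CHX the EPFL6 difference kept its sign in 21 of 22 alternatives for each, and with CHX in 20 of 22 for LEP and 22 of 22 for PUCHI. The difference of differences kept its sign in 18 of 21 for LEP and 20 of 21 for PUCHI. Scaling by library size alone moved the median of all genes to -0.73 for CHX against mock and to -0.70 for CHX plus EPFL6 against EPFL6, with 72% and 72.9% of calls lower in place of 48.4% in both. Under it the CHX against mock differences were 2.82 for ESR1, 2.77 for DRNL, 0.98 for PUCHI and -2.18 for LEP, and those of CHX plus EPFL6 against EPFL6 were -3.35, -1.75, 0.76 and -2.09. The context gene ARF19 had -0.02 there. A pseudocount of 8 gave DRNL 2.66 for CHX against mock, 1.75 for EPFL6 against mock and -3.51 for the difference of differences, and gave ESR1 -4.50 for CHX plus EPFL6 against CHX and -5.76 for the difference of differences. A larger pseudocount shrinks the differences of low counts by construction.

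Counts of all called genes moved by more than 1.5 times. For EPFL6 against mock they were 4 in the main fit, 31 with DESeq2, 2 with edgeR and 0 in the fit of the compared groups alone. For CHX plus EPFL6 against CHX they were 3140, 4713 with DESeq2 and 1505 in the fit of the compared groups alone. For the difference of differences they were 349, 1528 with DESeq2 and 211 with library size scaling. The cause was not tested.

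Leaving out 1 library at a time gave 1 to 5 calls for the peptide without CHX, 1018 to 3972 for the peptide with CHX, 17549 to 18363 for CHX without the peptide, 17250 to 18250 for CHX with the peptide and 86 to 954 for the difference of differences. For ESR1 the values ran from -5.04 to -4.47 for CHX plus EPFL6 against CHX, -2.83 to -2.26 for CHX plus EPFL6 against EPFL6 and -6.39 to -5.83 for the difference of differences, all with the smallest size without CHX plus EPFL6 replicate 3.

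With the replicate number as a block, the numbers of calls in this order of contrasts were 1, 2711, 18419, 18188 and 187. Among genes named with a test, the block ended the calls of CLV3 for EPFL6 against mock (adjusted p = 0.058 by limma), CUC2 for CHX plus EPFL6 against CHX (0.052 by limma), and ANT and KNAT1 for the difference of differences (0.061 and 0.056 by limma), and no other. The replicate numbers were not taken to pair the samples, and whether equal numbers belong together was not settled. For EPFL6 with mock, correlations of same-numbered deviations were -0.12, 0.28 and 0.42 for replicates 1, 2 and 3. Those of unlike numbers ran from -0.48 to 0.28. RBCS1A, LHCB1.1 and LHCB2.1 were highest in replicate 2 and lowest in replicate 3 in both groups, while AS1 was lowest in different replicates. For CHX plus EPFL6 with CHX, same-numbered correlations ran from -0.18 to 0.16 and those of unlike numbers from -0.38 to 0.35. Depth limits DRNL in mock most, at 4 to 13 reads a library.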
